A study of Mus musculus with 4 samples.

Results

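The genes of matricellular proteins and of fibronectin were followed by RNA-seq in mouse embryonic fibroblasts (MEFs) with and without *Phf2*. They are *Fn1*, *Thbs1*, *Thbs2*, *Tnc*, *Tnxb*, *Postn*, *Sparc*, *Spon1*, *Tgfbi* and *Spp1*, chosen by symbol from the 24391 genes of the deposited count table. All 10 were in the table, and all 10 were among the 13668 genes with enough counts for a test. In both groups 7 of them ranked within the first 96 of 12603 genes by level per length, and *Tgfbi*, *Tnxb* and *Spon1* ranked far lower. None of the 10 passed the test between *Phf2* KO and WT (edgeR, adjusted p under 0.1), in which 0.00732% of all genes tested did. *Phf2* itself, at 57.9% of the WT level, did not pass it either. With the replicate number of the libraries in the fit, 2 to 4 of the 10 passed, depending on the tool (4.00% to 11.0% of all genes). *Postn* stood furthest from WT among the 10, at 58.9% of the WT level, and *Thbs2* and *Tnc* came next, at 123% and 82.1%.

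The study compared 2 WT with 2 *Phf2* KO libraries, numbered as replicates 1 and 2, to ask which genes Phf2 regulates. Phf2 is a PHD finger protein of the histone demethylase family that binds H3K4me3, the mark of active promoters. The cells were primary MEFs from embryos at E13.5, brought to rest by confluence. Every library is labelled *Phf2* flox/flox, ERCre/+, with CreERT2 driven from the *Rosa26* locus, and only the *Phf2* KO libraries carry the label tamoxifen. The sample descriptions read noTamox for both WT libraries and Tamox for both *Phf2* KO libraries. The protocol, worded alike for all samples, describes 7 days in Opti-MEM with 2% charcoal-treated serum, in which 4-hydroxytamoxifen (4-OHT) was present at 0.5 µM, and the medium or vehicle of the WT cells is not named. Loss of *Phf2*, activity of Cre and exposure to 4-OHT therefore cannot be told apart here. The labels do not say from which embryos or cultures the libraries came.

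The libraries held 21094743 to 26094268 counts. *Phf2* itself had 3244 and 3680 counts in the WT libraries, against 1454 and 2158 in *Phf2* KO. Scaled by library size and TMM factor to normalized CPM, this was 138 ± 5.11 against 80.0 ± 13.9 (mean ± SD, n = 2 in each group), so that 57.9% of the WT level was left (log2 fold change -0.79 ± 0.14 SE, edgeR's adjusted p = 0.999, or 7.67e-19 with the replicate number as a term in the fit). A count over the whole gene also takes in exons outside the floxed part, and the source of the remaining counts was not tested. The female transcript *Xist* had 10042 and 8336 counts in replicates 1 of WT and *Phf2* KO and 3 and 12 in replicates 2, whereas Y-linked *Ddx3y* had 6 and 10 in replicates 1 and 1271 and 1295 in replicates 2. The libraries of a group were thus of opposite sex, from different embryos, and p-values without the replicate number in the fit include that difference in the spread. Libraries of the same number shared their sex, and ratios within each number are given below beside the values over all libraries. The 9 fibroblast markers were all measured, with a summed level of 57190 to 68857 CPM. The 18 macrophage markers summed to 4272 and 4835 CPM in replicates 1 of WT and *Phf2* KO and to 925 and 1451 CPM in replicates 2. Markers of epithelium summed to 0.483 to 0.998 CPM, of endothelium to 9.28 to 22.0 with *Tie1* at 0, of muscle to 14.8 to 53.9 and of osteoblasts to 23.1 to 31.5. A single gene made up most of each of the last 3 sums, *Kdr* (5.62 to 18.3 CPM), *Des* (14.1 to 53.1) and *Runx2* (22.9 to 30.8). Glial and neuronal markers reached 52.9 to 66.8 CPM and proliferation markers 111 to 186.

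Matricellular proteins are secreted into the extracellular matrix but are not its building material. They bind collagens, growth factors and cell surface receptors, and so tune how firmly cells attach, how matrix is assembled and how signals such as TGF-β reach the cell. Fibronectin is a structural glycoprotein that cells stretch into fibrils, onto which collagens and many matricellular proteins are laid. Fibroblasts are a main source of these proteins in developing tissue and in wounds.

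Several of these proteins bind integrins through the tripeptide RGD, the cell attachment site first defined in fibronectin. The coding sequences of 5 of the 10 genes encode at least 1 RGD, against 7.06% of 21734 coding sequences of the annotation (GENCODE M1 on mm9, the build of the counts). They are shown because they divide the genes by a feature that the expression values did not define. Each line gives 33 bases of coding strand, 5′ to 3′, with the 9 bases that encode RGD in capitals.

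Fn1, first site: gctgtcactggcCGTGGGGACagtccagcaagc
Fn1, second site: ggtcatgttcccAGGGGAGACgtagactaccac
Thbs1: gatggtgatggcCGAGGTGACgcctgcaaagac
Thbs2: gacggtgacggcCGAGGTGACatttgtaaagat
Tgfbi: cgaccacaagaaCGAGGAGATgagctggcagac
Spp1: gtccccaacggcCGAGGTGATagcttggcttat

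The first *Fn1* site starts at codon 1614, in exon 30 of 46 (chr1:71653320-71653328, minus strand), and the second at codon 2181, in exon 40 (chr1:71644017-71644025). Those of *Thbs1* and *Thbs2* lie at nearly the same place in the protein, codons 927 and 928, each in exon 18 of 22 (chr2:117948618-117948626, plus strand, and chr17:14808491-14808499, minus strand). The site of *Tgfbi* is near the end of its protein, at codon 642 in exon 15 of 17 (chr13:56738516-56738524, plus strand), and that of *Spp1* is at codon 145 in exon 7 of 8 (chr5:104868500-104868508, plus strand). No RGD was encoded in *Tnc*, *Tnxb*, *Postn*, *Sparc* or *Spon1*. Genes with the site and genes without it were found on both sides of no change. Of those with it, *Fn1* and *Tgfbi* had log2 fold changes below 0 and *Thbs1*, *Thbs2* and *Spp1* above 0, while of those without it *Tnc*, *Postn* and *Spon1* were below and *Tnxb* and *Sparc* above.

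The 10 genes took 4.95% and 4.68% of all counts in WT replicates 1 and 2 and 4.51% in each *Phf2* KO library. Levels were compared between genes only per length, as normalized CPM per kilobase of annotated exon, among the 12603 tested genes with a length. *Sparc*, a collagen-binding glycoprotein, had the highest level of the 10 in WT, 3597 ± 301 CPM per kilobase (SD, n = 2), which was rank 2 of all genes. *Fn1* (1677 ± 130, rank 9) and *Thbs1* (1536 ± 139, rank 10) followed, and the ranges of these neighbours overlapped. *Postn* came next with 719 ± 224 CPM per kilobase (rank 35), overlapping with *Thbs2* at 532 ± 46.6 (rank 53). *Tnc* had 403 ± 17.6 (rank 77) and overlapped with *Spp1*, 323 ± 267 (rank 88). The last 3 were set well apart from these and from each other, with 18.8 for *Tgfbi* (rank 2835), 10.9 for *Tnxb* (rank 4384) and 1.04 for *Spon1* (rank 10117). In *Phf2* KO, *Thbs2* and *Postn* stood in the opposite order by this length, with *Thbs2* at 656 ± 17.0 CPM per kilobase (rank 38) and *Postn* at 424 ± 37.7 (rank 75). The length matters most for *Postn*, whose longest annotated transcript has 4357 bases, against 7838 in all exons. By the longest transcript it would have 1294 CPM per kilobase in WT. The order of the 10 genes in WT is the same by that length, but in *Phf2* KO *Postn* would stay above *Thbs2*.

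**Figure D1:**
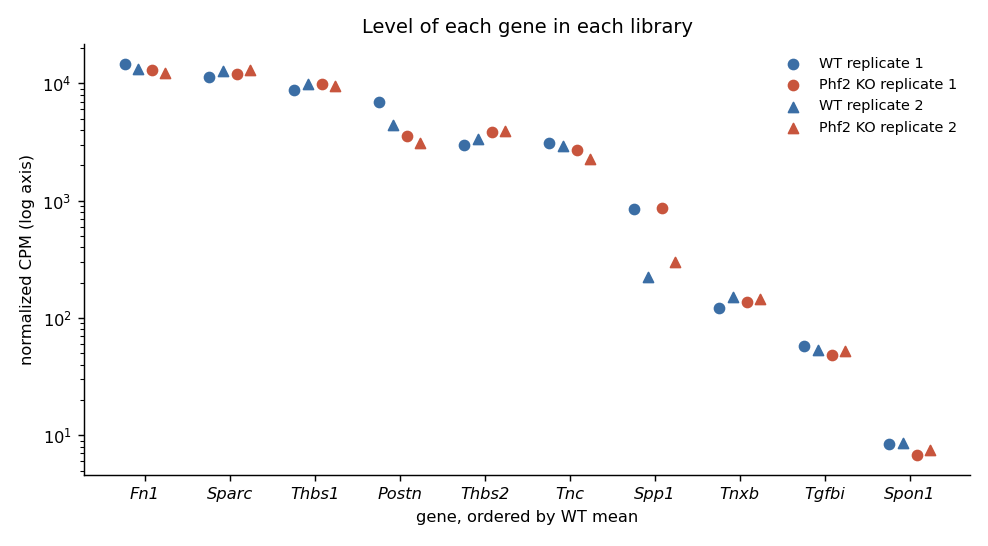
Normalized CPM (log axis, not divided by length) of each gene in the 4 libraries, WT in blue and *Phf2* KO in red, with circles for replicates 1 and triangles for replicates 2. Both *Postn* values of *Phf2* KO lie below both of WT, whereas for *Spp1* the replicates 1 of both groups lie above the replicates 2.

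Fibronectin (*Fn1*, chr1:71632094-71699774, minus strand) was measured at 14761 and 13231 normalized CPM in WT replicates 1 and 2, against 12883 and 12371 in *Phf2* KO. Both *Phf2* KO libraries were below both WT libraries, but by little. The level in *Phf2* KO was 90.2% of WT, a log2 fold change of -0.15 ± 0.14 (SE) with a 95% interval of -0.51 to 0.21 (edgeR's quasi-likelihood test, adjusted p = 0.999). That adjusted p was the same for all 10 genes, so only unadjusted values are given for the others. Part of the *Fn1* locus lies opposite *Apol7d*, and reads were counted by strand.

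Thrombospondins are large trimeric or pentameric proteins that bind calcium, and the products of *Thbs1* and *Thbs2* both restrain the growth of blood vessels. *Thbs1* (chr2:117937612-117952869, plus strand), whose product also activates latent TGF-β, had 8732 and 9928 CPM in WT, against 9845 and 9574 in *Phf2* KO. These groups overlapped, and the log2 fold change was 0.06 ± 0.13 (interval -0.30 to 0.41, unadjusted p = 0.687). *Thbs2* (chr17:14802507-14831269, minus strand), whose product also takes part in collagen fibril assembly, had 2957 and 3348 CPM in WT, against 3816 and 3959 in *Phf2* KO. Here both *Phf2* KO libraries were above both WT libraries, at 129% of WT within replicates 1 and 118% within replicates 2. The log2 fold change of 0.30 ± 0.12 had an interval of -0.02 to 0.62 (unadjusted p = 0.0606). *Thbs2* was the only 1 of the 10 genes whose *Phf2* KO libraries both lay above WT, an arrangement that 15.5% of all genes tested had.

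Tenascins are modular glycoproteins that, in the case of tenascin C, weaken the attachment of cells to fibronectin, and in the case of tenascin X bind collagen fibrils in connective tissue. *Tnc* (chr4:63620819-63681760, minus strand) had 3122 and 2935 CPM in WT, against 2683 and 2289 in *Phf2* KO. Both *Phf2* KO values were below both WT values, with a log2 fold change of -0.28 ± 0.13 (interval -0.63 to 0.06, unadjusted p = 0.0864). *Tnxb* (chr17:34807480-34856760, plus strand) had 122 and 152 CPM in WT, against 138 and 146 in *Phf2* KO. The *Phf2* KO values lay between those of WT, and the log2 fold change was 0.05 ± 0.13 (interval -0.30 to 0.40, unadjusted p = 0.721). Both loci overlap annotated genes on the opposite strand, *Tnxb* among them the pseudogene *Cyp21a2-ps*, and reads were assigned by strand.

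Periostin, the product of *Postn*, and its paralogue from *Tgfbi* are built of fasciclin domains, and periostin binds type I collagen, fibronectin and the protease of *Bmp1* in the cross-linking of collagen. *Postn* (chr3:54165031-54194961, plus strand) had 6875 and 4397 CPM in WT, against 3528 and 3111 in *Phf2* KO. The WT libraries differed from each other by more than the *Phf2* KO libraries did, and the lower WT library was still above both *Phf2* KO libraries. The level in *Phf2* KO was 51.3% of WT within replicates 1 and 70.7% within replicates 2. The log2 fold change of -0.76 ± 0.25 (interval -1.42 to -0.11) was the largest of the 10 and the only 1 with an unadjusted p under 0.05, at 0.0306, a limit that 4.21% of all genes passed. *Postn* had the 264th lowest log2 fold change of the 13668 genes. Its size rested on the WT libraries, since it was -0.39 without WT replicate 1 and -1.05 without WT replicate 2. *Tgfbi* (chr13:56710920-56740923, plus strand) was measured far lower, at 58.0 and 53.6 CPM in WT, against 48.5 and 52.5 in *Phf2* KO. The groups did not overlap but nearly touched, and the exact Poisson interval of WT replicate 2 (50.8 to 56.5 CPM, for counting error alone) took in *Phf2* KO replicate 2. The log2 fold change was -0.14 ± 0.097 (interval -0.40 to 0.11, unadjusted p = 0.202).

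**Figure D2:**
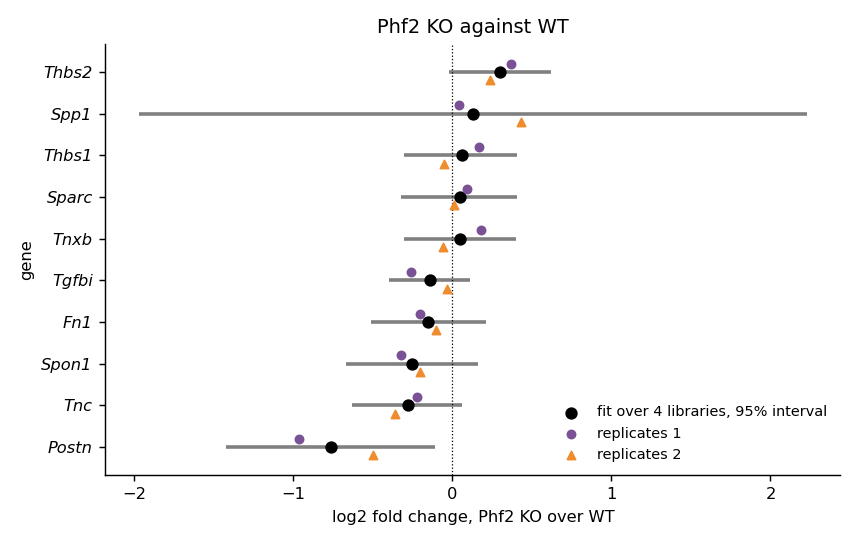
Log2 fold change of *Phf2* KO over WT for each gene, with the estimate over all 4 libraries (black, grey line the 95% interval), the ratio of replicates 1 (purple circles) and the ratio of replicates 2 (orange triangles). Only the interval of *Postn*, -1.42 to -0.11, leaves out 0, and that of *Spp1*, -1.97 to 2.23, is the widest.

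The genes furthest below and furthest above WT are shown with the 250 bases before their annotated start, on the transcribed strand, 5′ to 3′, with the letters TATAA, or TTATA where the match is on the other strand, in capitals.

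Postn, chr3:54164781-54165030, plus strand: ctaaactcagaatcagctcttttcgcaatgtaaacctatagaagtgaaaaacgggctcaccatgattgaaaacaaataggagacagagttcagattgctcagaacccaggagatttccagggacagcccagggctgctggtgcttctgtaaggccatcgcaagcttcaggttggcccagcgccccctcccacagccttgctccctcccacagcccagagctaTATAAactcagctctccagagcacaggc
Thbs2, chr17:14831270-14831519, minus strand: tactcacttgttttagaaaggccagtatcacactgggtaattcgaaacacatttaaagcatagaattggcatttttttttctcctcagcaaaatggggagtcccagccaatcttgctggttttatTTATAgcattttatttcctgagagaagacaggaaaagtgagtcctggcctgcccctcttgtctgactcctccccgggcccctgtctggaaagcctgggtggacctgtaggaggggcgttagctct

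Counted from the start, the letters TATAA begin at base -28 in *Postn*, where a TATA box is usually found, and the only match in *Thbs2*, on the other strand, begins at base -125. Of all 21734 such windows, 21.6% held TATAA on either strand, and so did those of *Tnc*, *Spon1* and *Spp1*. The letters GGGCGG of a GC box, present in 40.2% of windows, occurred in neither the *Postn* nor the *Thbs2* promoter. They occurred 2 times in that of *Fn1*, 4 times in that of *Thbs1* and 1 time in that of *Tgfbi*. CAGACA, a SMAD-type motif in 15.3% of windows, was found 2 times for *Thbs2* and not for *Postn*. It was also found 1 time each for *Sparc*, *Spon1* and *Spp1*, of which *Spon1* had a log2 fold change below 0. A match is a string of letters and not a bound site.

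*Sparc* (chr11:55208002-55233582, minus strand), whose product helps collagen to be processed and laid down, had 11394 and 12827 CPM in WT, against 12127 and 12911 in *Phf2* KO. These groups overlapped almost fully, with a log2 fold change of 0.05 ± 0.14 (interval -0.32 to 0.41, unadjusted p = 0.744). F-spondin, the product of *Spon1* (chr7:120909512-121186884, plus strand), is best known from the growth of axons. *Spon1* was the lowest of the 10, with 203 and 224 counts in WT, against 140 and 181 in *Phf2* KO, or 8.42 and 8.63 CPM against 6.76 and 7.53. Both *Phf2* KO values were below WT. The exact Poisson interval of *Phf2* KO replicate 1 (5.68 to 7.97 CPM) left out both WT values, and that of *Phf2* KO replicate 2 (6.47 to 8.71 CPM) took in both. The log2 fold change was -0.25 ± 0.16 (interval -0.67 to 0.16, unadjusted p = 0.168).

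Osteopontin, the product of *Spp1* (chr5:104864137-104870069, plus strand), binds integrins and CD44 and is made by bone cells and macrophages as well as by fibroblasts. *Spp1* had 843 and 222 CPM in WT, against 865 and 299 in *Phf2* KO. It was thus high in both replicates 1 and low in both replicates 2, 3.79-fold in WT and 2.89-fold in *Phf2* KO. Between the groups the log2 fold change was 0.13 ± 0.79, with an interval of -1.97 to 2.23 (unadjusted p = 0.879). With the replicate number in the fit it was 0.23 ± 0.093 (edgeR, adjusted p = 0.118). It was -0.83 without *Phf2* KO replicate 1, -0.54 without WT replicate 2 and 1.40 without WT replicate 1. The SD of *Spp1* in WT was 82.4% of its mean, against 31.1% for *Postn* and a median of 9.60% over all genes tested. In WT as in *Phf2* KO, each of the 18 macrophage markers was higher in replicate 1, and their sum was 4.62-fold higher in WT and 3.33-fold higher in *Phf2* KO. The summed markers of *Phf2* KO were 1.13 times those of WT within replicates 1 and 1.57 times within replicates 2, where *Spp1* was 103% and 134% of WT. The part of these cells in the *Spp1* values was not tested, and in bulk RNA fewer cells of a type and less RNA per cell cannot be told apart.

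**Figure D3:**
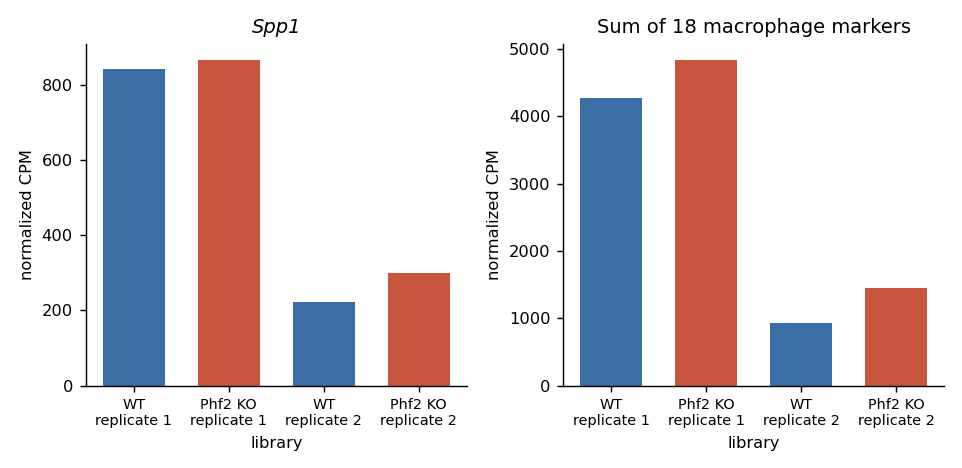
Normalized CPM of *Spp1* (left) and of 18 macrophage markers together (right) in the 4 libraries, WT in blue and *Phf2* KO in red. In both panels the bars of replicates 1 stand above those of replicates 2 (*Spp1* 843 and 865 against 222 and 299 CPM).

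Across the 10 genes the median log2 fold change was -0.05, against 0.01 over all genes tested, with 5 genes below 0 and 5 above it (48.8% of all genes were below). In 5 genes, *Fn1*, *Tnc*, *Postn*, *Spon1* and *Tgfbi*, both *Phf2* KO libraries were below both WT libraries, as in 18.0% of all genes. The same 5 were below WT within both replicate numbers, which held for 30.1% of all genes. *Thbs2*, *Sparc* and *Spp1* were above WT within both numbers, as were 32.6% of all genes, and *Thbs1* and *Tnxb* were above WT within replicates 1 and below within replicates 2. Of the 9 fibroblast markers, *Col1a1*, *Col3a1*, *Dcn* and *Lum* were lower in both *Phf2* KO libraries than in WT, while the groups overlapped for the other 5. The sum of all 9 was 61562 and 68857 CPM in WT, against 58665 and 57190 in *Phf2* KO. The 6 markers other than collagens summed to 6408 and 6645 CPM in WT and to 6314 and 6333 in *Phf2* KO. The part of a difference in cell makeup in the 10 genes was not tested.

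**Figure D4:**
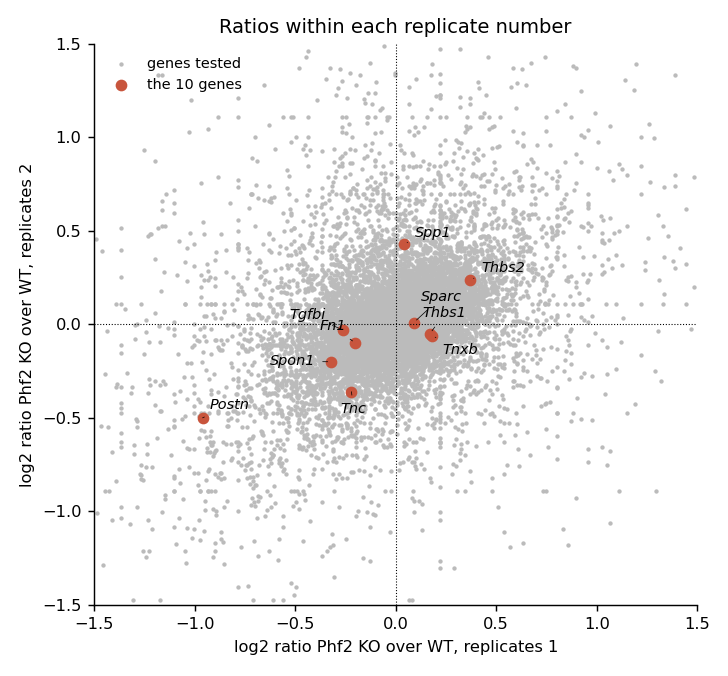
Log2 ratio of *Phf2* KO over WT within replicates 1 (horizontal) and within replicates 2 (vertical) for the genes tested (grey) and the 10 genes (red). The 206 genes that lie outside the axes, or lack a ratio because a count was 0, are not drawn. *Postn* lies at -0.96 and -0.50 and *Thbs2* at 0.37 and 0.24, while *Thbs1* and *Tnxb* have ratios of opposite sign.

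Because same-numbered libraries shared their sex, the number was also entered as a term in the fit. This fit had 1 residual degree of freedom and called 11.0% of all genes, among them 2 of the 10. *Postn* had an adjusted p of 4.14e-07 (log2 fold change -0.73) and *Thbs2* of 0.0948 (0.30) in edgeR's quasi-likelihood test, whereas *Tnc* had 0.105 and *Spp1* 0.118. The calls differed between tools. DESeq2 with the same term called 4.00% of the genes it gave an adjusted p and 2 of the 9 such genes here, *Thbs2* (adjusted p = 0.00934) and *Tnc* (0.0286), but not *Postn* (0.573). Limma-voom called 10.0% of all genes and 4 of the 10, *Postn* (7.5e-10), *Thbs2* (0.0436), *Tnc* (0.0563) and *Spp1* (0.067). Of the 10 genes, only *Thbs2* was thus called by all 3 tools with the number in the fit, and none was called without it.

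The surroundings of these genes were read from 3 lists. Of 27 other matricellular genes, 21 had enough counts for the test and none was called (edgeR), with a median log2 fold change of -0.08. An unadjusted p under 0.05 was reached by 2 of the 21, against 4.21% of all genes. *Spock3*, a proteoglycan of the Sparc family, had 1.74 and 0.617 CPM in WT, against 0.290 and 0.125 in *Phf2* KO, a log2 fold change of -2.50 ± 0.77 at very low levels (unadjusted p = 0.0256). *Thbs3*, a further thrombospondin, named after its values were seen, had 98.4 and 110.4 CPM in WT, against 67.9 and 81.3 in *Phf2* KO, a log2 fold change of -0.48 ± 0.12 (unadjusted p = 0.0137, or an adjusted p of 5.36e-07 with the replicate number in the fit). The groups of both genes did not overlap. In 6 of the 21 both *Phf2* KO libraries were below both WT libraries (18.0% of all genes), and in 2 they were above (15.5%). *Spock2*, a relative of *Spock3* and also low, had 1.49 and 2.89 CPM in WT, against 1.35 and 0.957 in *Phf2* KO. Its log2 fold change was -0.93 ± 0.44, with ratios of -0.14 within replicates 1 and -1.60 within replicates 2. The largest changes upward were 0.44 ± 0.55 for *Vtn* (vitronectin, an adhesive protein of serum), at only 0.373 to 1.04 CPM, and 0.27 ± 0.14 for *Mfge8*, whose product bridges dying cells to phagocytes. With the replicate number in the fit 4 of the 21 were called (11.0% of all genes), *Mfge8* higher and *Spock2*, *Spock3* and *Thbs3* lower.

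The receptors of these proteins span several families. Of 18 genes for integrins, syndecan 4, CD44, CD36, CD47 and others, 17 were tested and none was called (edgeR). None had an unadjusted p under 0.05, against 4.21% of all genes, and the median log2 fold change was 0.04. The furthest from 0 were *Itgb8* at -0.51 ± 0.29 and *Cd44* at -0.24 ± 0.30, and on the other side *Stab1*, a scavenger receptor for Sparc, at 0.30 ± 0.88 and *Cd47*, a receptor for thrombospondin 1, at 0.23 ± 0.19. *Stab1* had 202 and 42.4 CPM in WT, against 225 and 75.3 in *Phf2* KO, and so followed the replicate number as *Spp1* and the macrophage markers did. So did, among other receptors, *Cd36* (78 and 13.9 CPM in WT, 63.7 and 19.9 in *Phf2* KO), *Itga4* and *Itgb3*. With the replicate number in the fit 2 of the 17 were called (11.0% of all genes), *Stab1* higher and *Cd44* lower.

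All 17 matrix partners, among them collagens, elastin, fibrillin, fibulins, matrix enzymes and TGF-β ligands, were tested and none was called (edgeR). An unadjusted p under 0.05 was reached by 2 of the 17, against 4.21% of all genes. *Col5a1*, a chain of the collagen that sets fibril diameter, had 5518 and 5406 CPM in WT, against 3994 and 3643 in *Phf2* KO, a log2 fold change of -0.52 ± 0.12 (unadjusted p = 0.00874). *Fbln1*, which encodes a fibronectin-binding fibulin, had 114 and 105 CPM in WT, against 84.3 and 81.4 in *Phf2* KO, a log2 fold change of -0.40 ± 0.083 (unadjusted p = 0.00584). In both genes the libraries of each group lay close together and well apart from the other group. Upward, *Tgm2*, a cross-linker of fibronectin, had 0.39 ± 0.24 and *Tgfb3* 0.29 ± 0.20. The median of the list was -0.09, and in 7 of the 17 both *Phf2* KO libraries were below both WT libraries (18.0% of all genes), with none the other way round (15.5%). With the replicate number in the fit 5 of the 17 were called (11.0% of all genes), *Tgm2*, *Tgfb2* and *Tgfb3* higher and *Col5a1* and *Fbln1* lower.

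**Figure D5:**
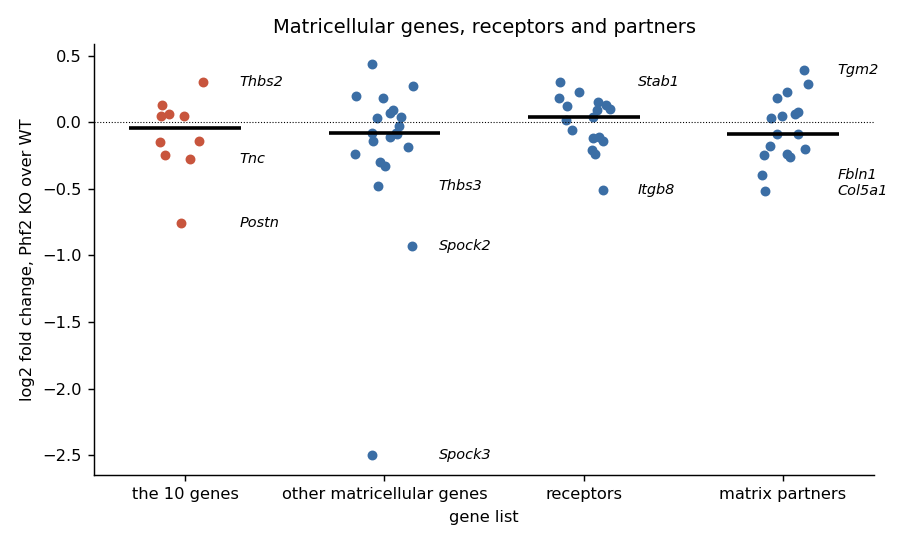
Log2 fold change of *Phf2* KO over WT for the 10 genes (red) and for the tested genes of 3 lists (blue), 1 point a gene, with a black bar at each median. The medians are -0.05, -0.08, 0.04 and -0.09 from left to right. *Postn*, *Spock2* and *Spock3* lie lowest, with *Spock2* and *Spock3* at very low levels.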

How the data were processed

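Per the study's methods, the authors sequenced single reads on a HiSeq, trimmed them with Trim Galore, cleared ribosomal sequences with bowtie2, mapped the rest to mm9 with STAR in reverse-stranded mode and assigned them to genes with featureCounts. Versions and the annotation release are not given in the sources used here. The deposited values are raw counts, whole numbers before any scaling, for 24391 symbols. A second deposited table, of the authors' DESeq2 fold changes and p-values, was not used.

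Genes were kept by filterByExpr (13668), scaled by TMM (factors 0.9826 to 1.013) and tested with edgeR 4.0.16 (glmQLFit and glmQLFTest, R 4.3.3), with Benjamini-Hochberg adjustment over all genes, called under 0.1. SEs were derived from the F statistic. DESeq2 1.42.0 and limma 3.58.1 (voom), other scalings, filters and thresholds, the replicate number as a block and each library left out were alternatives. Positions, exons and sequences came from GENCODE M1 on mm9. No pair of libraries agreed within sampling noise (chi-square per degree of freedom 11.8 to 44.3). The value was lowest between WT and *Phf2* KO of the same number, 15.2 for replicates 1 and 11.8 for replicates 2. It was 41 between the WT libraries, 28 between the *Phf2* KO libraries, and 44.3 and 40.8 between groups across numbers. The genes and lists were chosen with earlier results of these data known. Named list genes are those called, otherwise the 2 with the largest log2 fold change in each direction. *Col1a1*, *Col3a1*, *Dcn* and *Lum*, *Kdr*, *Des* and *Runx2*, and *Thbs3*, *Tgfb2*, *Cd36*, *Itga4* and *Itgb3*, were named after their values were seen. Poisson intervals cover counting error only.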

Additional observations from a re-analysis of the deposited data

How the results depend on the processing

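Without a block, the direction and the absence of a call held for all 10 genes with other tools, scalings and filters. The 90 values compared also include the thresholds of 0.05 and 0.01. These repeat the same fit, so neither direction nor call could change there. The count of all genes called was less stable. It was 0 higher and 1 lower in edgeR's quasi-likelihood test (211 and 365 at an unadjusted p under 0.05), 10 and 54 in DESeq2, 3 and 38 in the likelihood ratio test, and 0 lower in limma-voom (352 unadjusted) and at thresholds of 0.05 and 0.01. The cause was not tested.

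The labels do not say that replicate numbers pair the libraries, and 2 pairs are too few to show it. For the tested genes with counts in all 4 libraries, the log2 difference between replicates 1 and 2 was compared between WT and *Phf2* KO. Pearson's r was 0.746 (genes are not independent). With the replicate block the counts were 789 higher and 711 lower in edgeR, 183 and 119 in DESeq2 and 725 and 646 in limma-voom, the latter pair added after seeing the data. Of the 10 genes, 2, 2 and 4 were called. The block left 1 residual degree of freedom and a common dispersion of 0.00363, against 0.0451 without it, so its p-values rest on spread shared between genes. No gene of the 10 changed direction under it.

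With 1 library left out, where the lone library is assumed to vary like the other group, no gene was called lower (0 in each of the 4 fits, edgeR, 154 to 316 unadjusted), and 35 of 40 values of the 10 genes kept their direction. Those that turned were *Thbs1* (-0.02 to 0.15), *Tnxb* (-0.09 to 0.22) and *Sparc* (-0.02 to 0.14), each without WT replicate 1, and *Spp1* (-0.83 to 1.40), without *Phf2* KO replicate 1 (-0.83) or WT replicate 2 (-0.54). *Postn* ranged from -1.05 to -0.39. By the longest transcript instead of all exons, the WT level per kilobase moved beyond its SD for *Sparc* (5265), *Postn* (1294), *Tnc* (426) and *Spon1* (1.38). Of the 6 genes whose groups did not overlap, the exact Poisson intervals of the groups overlapped for *Spon1* (140 to 224 counts) and *Tgfbi* (1004 to 1398) and not for the other 4.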
